A study of Mus musculus with 4 samples.

Results

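The 44 genes described here act in mitotic entry, the spindle and cytokinesis. They were chosen by name from the known roles of their products, with earlier results of these data known. They were measured in mouse embryonic fibroblasts (MEFs), primary cells grown out of dissociated embryonic tissue. The Illumina MouseRef-8 bead arrays used hold probes for 16593 named genes. Constitutive deletion of both H3f3b alleles marked the 2 knockout (KO) lines, and the 2 wildtype (WT) lines kept both alleles. H3f3b is 1 of the genes that encode the replacement histone H3.3. All 4 lines came from C57BL6J embryos at day 12.5 of a cross between H3f3b heterozygotes, whose deleted allele had been made with the oocyte-expressed Zp3-Cre. All were described as littermates and carried the pBabe puro vector stably. Head and visceral organs had been removed, so each line is a mixed culture of the remaining tissue and not a clone, and each was measured on 1 array.

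Entry into mitosis is driven by the kinase Cdk1 bound to A- and B-type cyclins, which the phosphatases of the Cdc25 family switch on and Plk1 and Aurora A reinforce. Kinesin motors and microtubule-binding proteins then build the spindle, and the anaphase-promoting complex (APC) with its activator Cdc20 marks cyclins and securin for destruction, after which the central spindle and the contractile ring divide the cell. Transcripts of these genes accumulate in G2 and mitosis, so that in a bulk culture they are known as a sign of how many cells are dividing. In these bulk samples, a change in the number of cells in G2 and mitosis and a change in RNA per such cell cannot be told apart.

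Of the 44 genes, 22 were tested, 16 had a probe that was not detected on at least 2 arrays, and 6 (Ccnb1, Kif20b, Racgap1, Mki67, Troap and Ckap2) had no named probe and were not analysed here. A probe counted as detected where its detection p-value, which sets it against the negative controls of its array, was under 0.05. The 44 genes had 59 named probes, of which 33 were tested. The probes left out were 18 of the undetected genes and 8 additional probes of tested genes. Among the genes left out was cyclin A2 (Ccna2), a partner of Cdk1, with signals of 91.2 and 88.1 on the KO arrays against 80.7 and 88.0 on the WT arrays. All 4 signals lay below the dimmest signal called detected, which was 114 and 113 for the KO arrays and 94.5 and 98.3 for the WT arrays. The others were Ccnb2, Cks1b, Cks2, Cdc25b, Nek2, Ttk, Ube2c, Pttg1, Ccnf, Kif18a, Kif20a, Ect2, Cep55, Hmmr and Ckap2l, whose probes had signals of 77.5 to 114.7 over all arrays. Ccnf, which encodes the F-box cyclin of an SCF ubiquitin ligase, was called detected in KO replicate 1 alone (114.7, with 103 in the other KO line, and 86.7 and 93.5 in WT). Kif18a, a kinesin of the chromosome-attached microtubule tips, was called detected in WT replicate 1 alone, where 1 of its probes had a signal of 97.5 (105 and 102 in KO, and 84.5 in WT replicate 2). The other 14 were detected on 0 arrays, and nothing can be said of their levels beyond this limit.

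**Figure D1:**
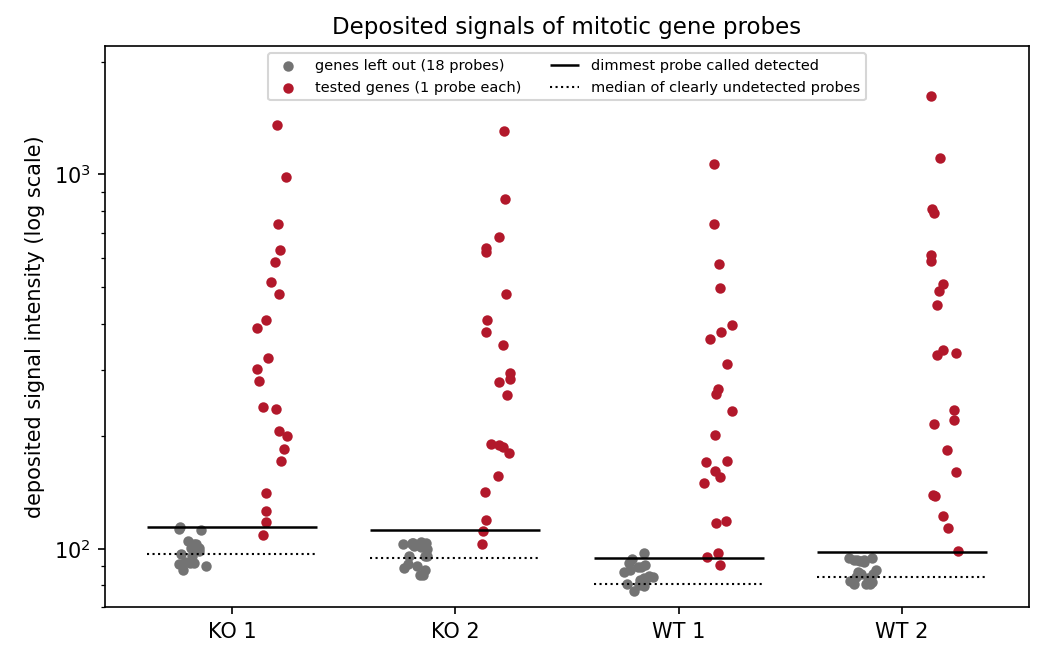
Deposited signal intensity (vertical axis, log scale) of mitotic gene probes on each of the 4 arrays. Grey points are the 18 probes of the 16 genes left out, red points the 22 tested genes by 1 probe each, the solid line is the dimmest probe called detected on that array and the dotted line the median of clearly undetected probes. The grey points lie between 77.5 and 114.7, around the dotted lines.

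The tested genes were not of 1 kind. They included 2 of 8 genes in the group of cyclins, Cdk1 and its regulators, 5 of 7 mitotic kinase genes with Bora and Foxm1, 2 of 5 genes of the APC and SCF pathways, 5 of 8 kinesins, 2 of 5 cytokinesis genes, 4 of 8 spindle microtubule proteins and 2 of 3 mitotic chromosome proteins. No cyclin of the list was tested. The description below therefore rests on Cdk1, the kinases, motors and spindle proteins, and not on their cyclin partners.

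The promoters of such genes are known for a short element called CHR, read as TTTGAA or TTCGAA, through which MuvB complexes hold them silent in G1 and raise them in G2, and for CCAAT boxes bound by NF-Y. RefSeq promoter sequences (build GRCm38.p6, 250 bases before to 50 after the start) were given for 36 of the 44 genes, as 40 promoters. The CHR letters, on either strand, stood in 30 of these 40 promoters (75%), against 19.2% of all 32851 promoters. TTTGAA alone stood in 29 (72.5%, against 17.9%), CCAAT on either strand in 31 (77.5%, against 37.4%), and both motifs in 25 (62.5%, against 7.52%). The letters began within 50 bases of the start, a window set after the positions were seen, in 27 of the 40 (67.5%), against 5.31% of all promoters. A match of letters is no proof of a binding site. The stretches from 80 bases before to 50 after the start are shown for 7 tested genes of different roles, with CHR letters and CCAAT in capitals on either strand (ATTGG and TTCAAA are those motifs read on the other strand). They lie at chr10:69352863-69352992 (minus strand) for Cdk1, chr7:122159355-122159484 (plus) for Plk1, chr4:118437294-118437423 (minus) for Cdc20, chr9:61946750-61946879 (minus) for Kif23, chr7:80294371-80294500 (plus) for Prc1, chr11:99024140-99024269 (minus) for Top2a and chr15:85859627-85859756 (plus) for Gtse1.
Cdk1: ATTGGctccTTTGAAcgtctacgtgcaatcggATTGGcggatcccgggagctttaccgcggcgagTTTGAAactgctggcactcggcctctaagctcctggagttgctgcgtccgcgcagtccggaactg
Plk1: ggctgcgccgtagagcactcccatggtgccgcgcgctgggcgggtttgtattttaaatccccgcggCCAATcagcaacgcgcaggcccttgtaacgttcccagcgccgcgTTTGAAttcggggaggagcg
Cdc20: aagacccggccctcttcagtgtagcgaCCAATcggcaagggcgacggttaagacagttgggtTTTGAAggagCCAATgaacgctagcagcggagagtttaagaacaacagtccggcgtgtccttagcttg
Kif23: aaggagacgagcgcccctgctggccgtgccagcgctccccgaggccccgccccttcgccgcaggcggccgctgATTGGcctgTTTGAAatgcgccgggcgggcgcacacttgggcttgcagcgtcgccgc
Prc1: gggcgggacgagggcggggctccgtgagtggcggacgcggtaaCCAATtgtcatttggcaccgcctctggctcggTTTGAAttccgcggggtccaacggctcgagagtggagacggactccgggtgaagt
Top2a: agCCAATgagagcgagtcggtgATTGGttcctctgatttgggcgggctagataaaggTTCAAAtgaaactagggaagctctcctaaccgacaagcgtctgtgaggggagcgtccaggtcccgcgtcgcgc
Gtse1: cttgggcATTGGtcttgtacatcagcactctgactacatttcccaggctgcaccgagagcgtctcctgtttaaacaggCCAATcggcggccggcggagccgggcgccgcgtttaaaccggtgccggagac
The first 6 hold the CHR letters, whereas the Gtse1 stretch holds CCAAT only, and no CHR letters were found in either promoter given for Gtse1. Nusap1 and Melk also had 0 matches to the CHR letters, and 13 of the 16 tested genes with a promoter had at least 1.

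The KO arrays were brighter over all probes, with mean signals of 381 and 382 against 291 and 294 on the WT arrays, so all 4 were brought to 1 distribution before testing, and values below are normalized log2 intensities unless called deposited signals. The targeted transcript behaved as labelled, since H3f3b was undetected on both KO arrays (deposited signals 97.3 and 98.7) and had signals of 1736 and 1686 on the WT arrays (at least 69.5-fold lower in KO, limma adjusted p = 3.05e-05). For the mitotic genes, however, the array that stood apart was WT replicate 2. Its median over the 22 genes lay 0.52 log2 units above the mean of the 4 arrays, while the medians of the other arrays were -0.11 (KO replicate 1), -0.25 (KO replicate 2) and -0.10 (WT replicate 1). WT replicate 2 had the highest value of the 4 arrays for 21 of 22 genes, against 29% of all 8047 genes tested. It was above WT replicate 1 for 22 of 22, as were 4021 of all 8047 genes. The gap between these lines of the same genotype had a median of 0.62 (1.54-fold) and ran from 0.11 for Foxm1 to 1.07 (2.10-fold) for Plk1. The WT arrays had nearly the same mean signal, and the deposited signals of the 22 genes were likewise all higher in WT replicate 2 (median ratio 1.36, against 1.02 over all genes).

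**Figure D2:**
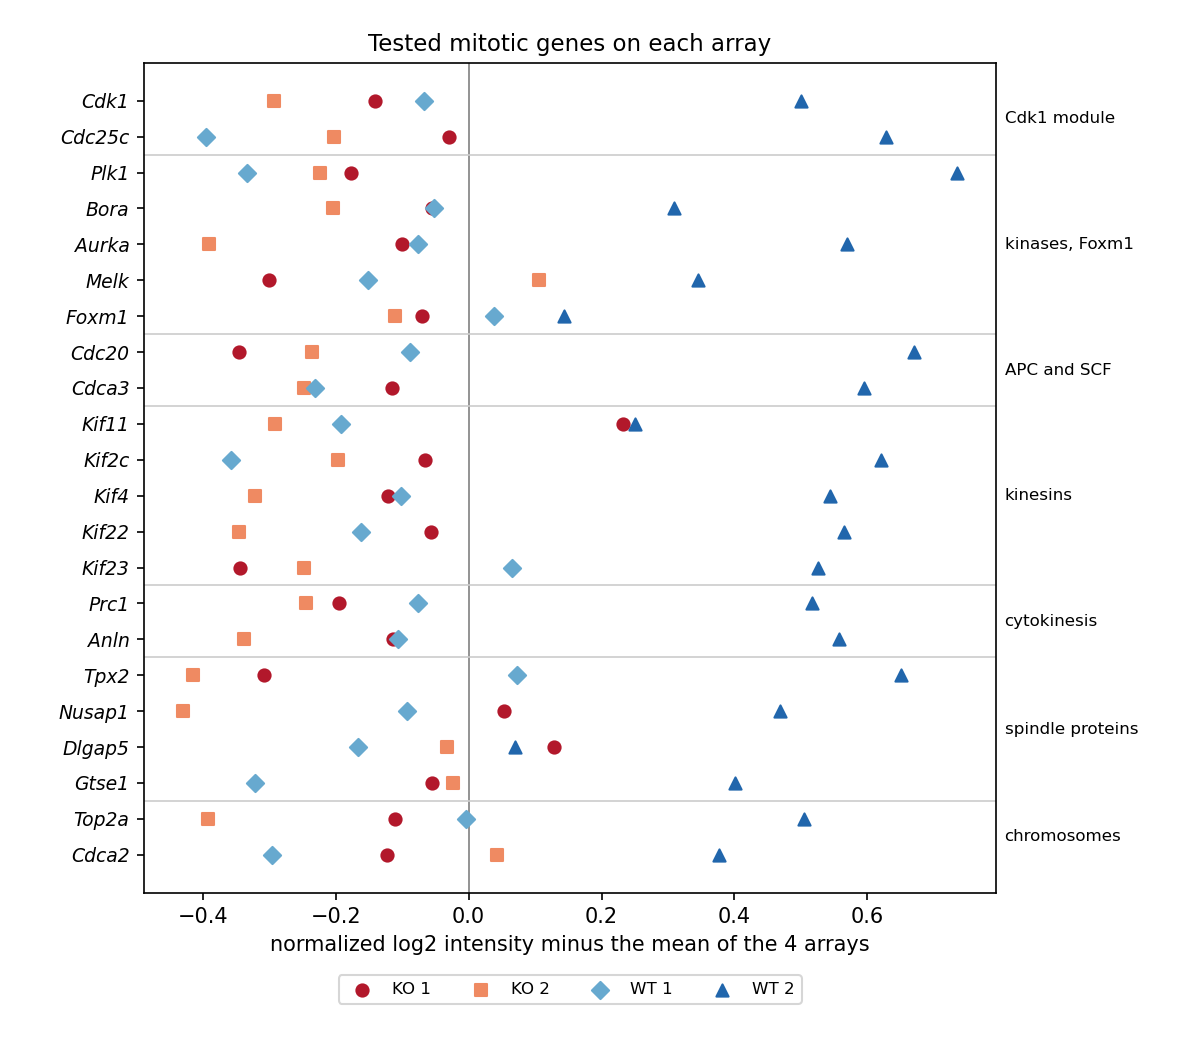
Normalized log2 intensity of each of the 22 tested genes on each array, minus that gene's mean over the 4 arrays (horizontal axis), in the order of the groups named on the right. WT replicate 2 (dark blue triangles) has the highest value in 21 rows, the exception being Dlgap5, where KO replicate 1 has it.

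Set against the KO lines, the WT lines thus gave different answers. The median gap over the 22 genes between WT replicate 2 and the mean of the KO arrays was 0.75 log2 units, and the same median for WT replicate 1 was 0.09. WT replicate 1 lay above both KO arrays for 11 genes (33.1% of all genes), between them for 5 (28%) and below both for 6 (38.6%). The KO lines differed less from each other, with a median gap of 0.14 between KO replicate 1 and KO replicate 2. KO replicate 2 had the lower value of the KO pair for 17 of 22 genes, against 51.3% of all genes, and the lowest of all 4 arrays for 13, against 21.8%.

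The comparison of genotypes asked whether these transcripts differed between KO and WT lines. With all 4 arrays, 21 of 22 tested genes had a difference below 0 (lower in KO), against 47.6% of all genes. The median KO minus WT difference was -0.39 log2 units, with a range of -0.72 for Tpx2 to 0.10 for Dlgap5, while the median over all genes was 0.01. After adjustment in limma, 0 of the 22 passed the threshold of 0.05, which 0.0124% of genes (H3f3b alone) passed. At an unadjusted p under 0.05, 2 members were lower in KO (Tpx2 and Kif23), against 3.54% of all genes, and 0 were higher, against 4.59%. Both KO arrays lay below both WT arrays for 11 members, against 17.1% of all genes, and above both for 0, against 21%. In 5 of the 11, the lower WT array cleared the higher KO array by less than 0.1 log2 units. All 11 separated the genotypes only after normalization. In the deposited signals, brighter on the KO arrays, both KO arrays lay below both WT arrays for 0 of 22 (0.447% of all genes). They lay above both for 7 of 22 (88.9% of all genes). Tpx2 was undetected on both KO arrays and passed the detection filter through the WT arrays alone, which favours a lower KO value, so it is no support for the direction. Of the other 21 genes, 1 was lower at an unadjusted p under 0.05, 10 separated the genotypes and 20 had a difference below 0, with a median of -0.38.

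**Figure D3:**
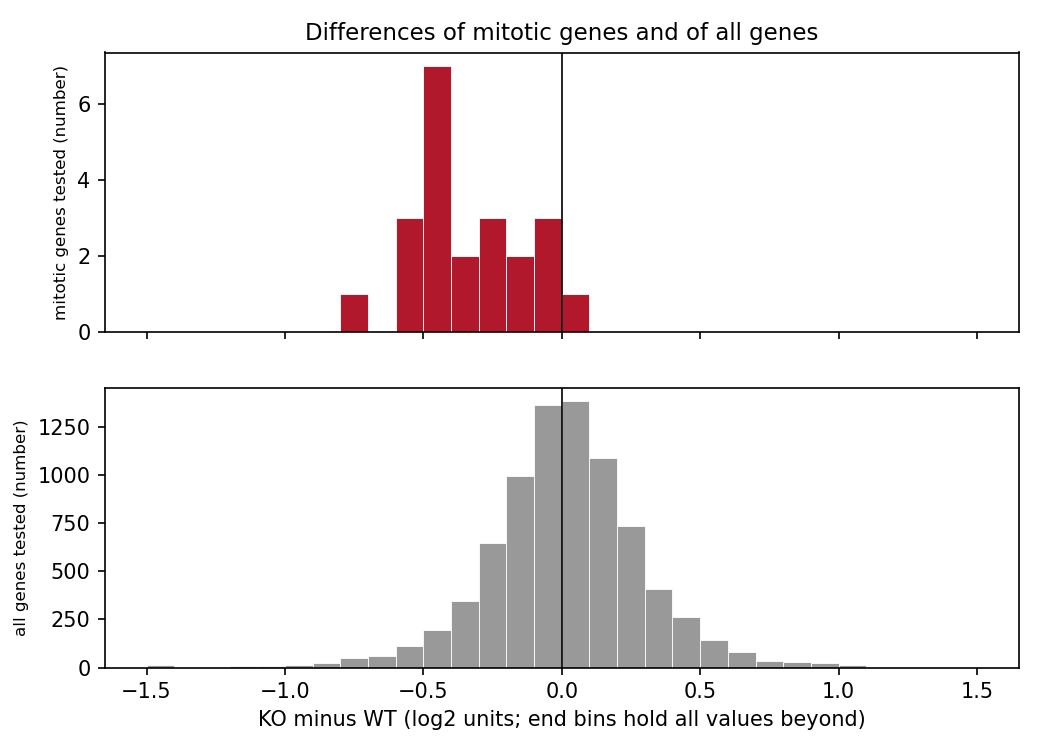
Number of genes (vertical axes) by KO minus WT difference in log2 units (horizontal axis, bins of 0.1), for the 22 tested mitotic genes above and all 8047 tested genes below. All mitotic genes but Dlgap5 lie left of 0, within the range spanned by all genes, whose central 95% ran from -0.58 to 0.60.

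Much of this shift came with 1 WT array. Without WT replicate 2, the median difference was -0.09, with 13 genes lower (47.2% of all genes) and 9 higher in KO, and 0 lower at an unadjusted p under 0.05 in limma (4.96% of all genes). Without WT replicate 1, it was -0.76, with 22 lower (48.2% of all genes) and 15 at an unadjusted p under 0.05 (5.75%). Leaving out a KO array had a smaller effect, with medians of -0.45 without KO replicate 1 and -0.32 without KO replicate 2. A genotype left with 1 array takes its spread from the other genotype in these fits. Of the 11 genes that separated the genotypes, all 11 also had a negative difference without WT replicate 2, since in them WT replicate 1 was above both KO arrays.

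**Figure D4:**
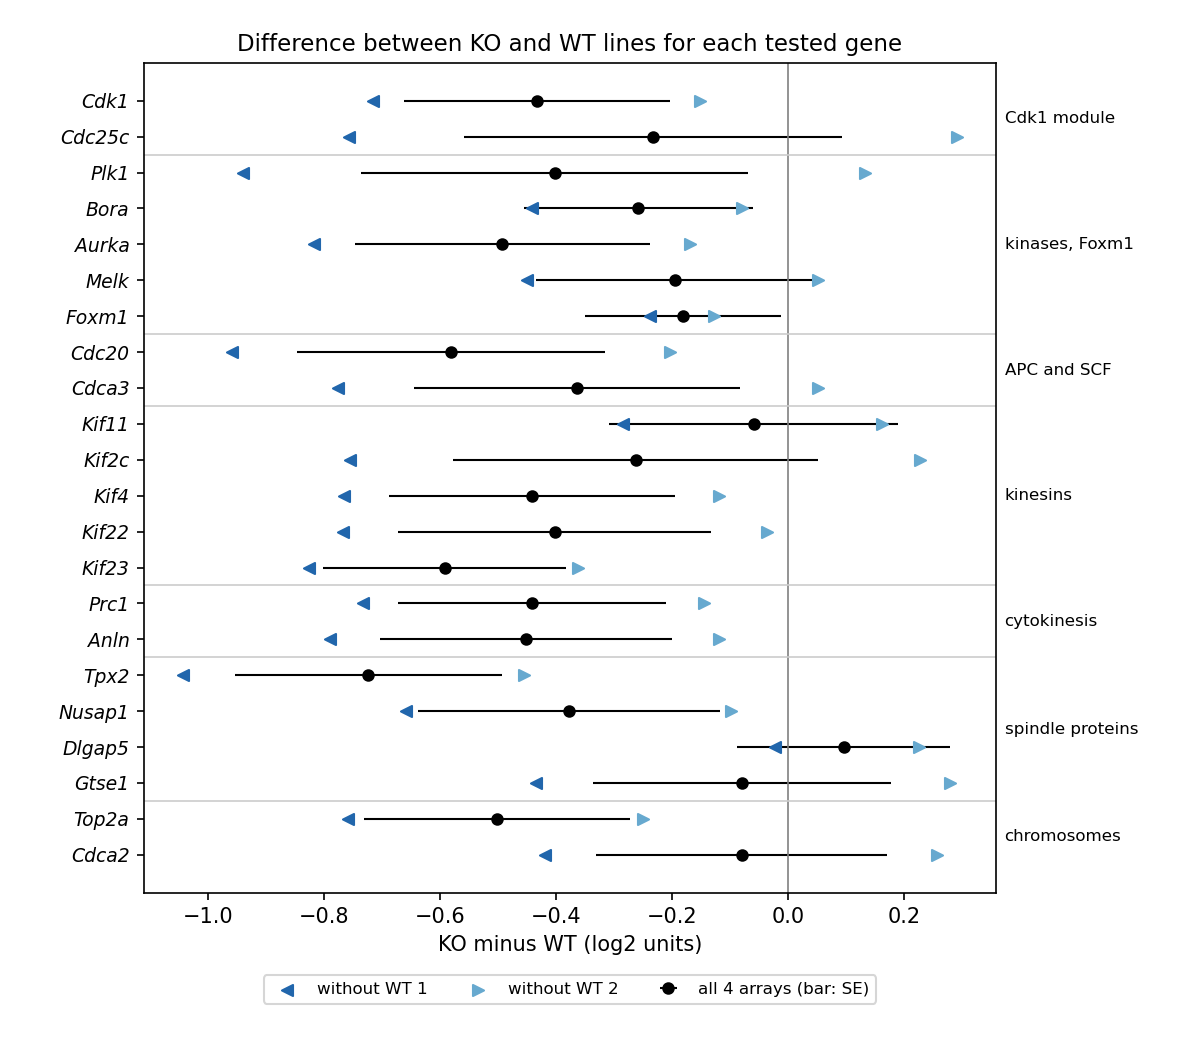
KO minus WT difference in log2 units (horizontal axis) of each tested gene with all 4 arrays (black points, bars are the SE from limma), without WT replicate 1 (dark triangles pointing left) and without WT replicate 2 (light triangles pointing right). The median is -0.39 with all arrays, -0.76 without WT replicate 1 and -0.09 without WT replicate 2.

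In the group of Cdk1 and its regulators, Cdk1 had values of 9.15 and 9.0 on the KO arrays against 9.22 and 9.79 on the WT arrays. Both KO values were lower, by little for WT replicate 1, and the difference was -0.43 ± 0.23 (SE, n = 2 KO and 2 WT arrays throughout, limma adjusted p = 0.723). Cdc25c, the phosphatase that removes inhibitory phosphates from Cdk1, had values of 5.21 and 5.04 for KO against 4.85 and 5.87 for WT. Here WT replicate 1 was the lowest and WT replicate 2 the highest of all arrays, and the difference of -0.23 ± 0.33 was smaller than its error. A second probe for Cdc25c, dimmer and undetected in KO replicate 2, gave -0.38 ± 0.28.

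Of the mitotic kinases, Aurka, which encodes the spindle pole kinase Aurora A, had the largest difference at -0.49 ± 0.25 (limma adjusted p = 0.707). Its values were 8.14 and 7.85 in KO against 8.17 and 8.81 in WT, so KO replicate 1 and WT replicate 1 were nearly equal and the gap lay between KO replicate 2 and WT replicate 2. Plk1, a kinase that acts from mitotic entry to cytokinesis, showed the widest gap between the WT lines, with values of 8.04 and 8.0 for KO against 7.89 and 8.96 for WT. The KO pair fell between the WT lines, and the difference of -0.40 ± 0.33 had the opposite sign without WT replicate 2 (0.13). Bora, the cofactor with which Aurora A activates Plk1, had values of 6.66 and 6.51 for KO against 6.67 and 7.03 for WT (-0.26 ± 0.20), with KO replicate 1 and WT replicate 1 again almost level.

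Melk, a kinase gene of proliferating cells, had values of 5.62 and 6.03 for KO against 5.77 and 6.27 for WT, which overlap (-0.19 ± 0.24). A dimmer Melk probe, undetected on both KO arrays, had 4.77 and 4.51 in KO against 4.86 and 5.14 in WT, with no overlap (-0.36 ± 0.20). The WT arrays alone carried this probe through the detection filter, which favours a lower KO value, so it is no support for the direction. Foxm1, the transcription factor that raises many G2 and mitotic genes, had 6.46 and 6.42 in KO against 6.57 and 6.67 in WT. The KO values were below both WT values, by a difference of -0.18 ± 0.17 that was about the size of its error. A second Foxm1 probe of similar brightness had 6.15 and 6.37 in KO against 6.60 and 6.97 in WT, with a difference of -0.52 ± 0.20 (unadjusted p = 0.0383, limma adjusted p = 0.589), and likewise no overlap.

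Cdc20, which brings substrates to the APC, had the largest difference outside of the spindle and kinesin groups. Its brightest probe had values of 8.74 and 8.85 for KO against 9.0 and 9.75 for WT, a difference of -0.58 ± 0.27 (limma adjusted p = 0.661). Deposited signals on that probe were 584 and 620 in KO and 499 and 791 in WT. As for the other genes that separated the genotypes, both KO values fell below both WT values only after the arrays were brought to 1 distribution. Of the other detected Cdc20 probes, the values of 8.05 and 7.88 for KO against 8.22 and 8.93 for WT gave -0.61 ± 0.26, and those of 7.91 and 7.76 for KO against 8.20 and 8.92 for WT gave -0.72 ± 0.26 (unadjusted p = 0.0276, limma adjusted p = 0.570). The dimmest, with 7.18 and 7.36 in KO against 7.16 and 8.22 in WT, gave -0.42 ± 0.33 and overlapped, as WT replicate 1 was the lowest array on it. All 4 Cdc20 probes thus had a negative difference and were highest in WT replicate 2. Cdca3, the trigger of mitotic entry that works with an SCF ligase, had values of 8.55 and 8.42 for KO against 8.43 and 9.26 for WT. WT replicate 1 lay between the KO arrays, and the difference was -0.36 ± 0.28. A dimmer Cdca3 probe had 5.95 and 5.73 in KO against 5.85 and 6.70 in WT (-0.44 ± 0.29). On it WT replicate 1 again lay between the KO arrays.

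Among kinesins, Kif23, the motor subunit of centralspindlin at the midzone, was lower in KO at an unadjusted p of 0.0261 (-0.59 ± 0.21, limma adjusted p = 0.570). Its values were 7.42 and 7.51 in KO against 7.83 and 8.29 in WT, so both KO lines lay below both WT lines. Without WT replicate 2 the difference shrank to -0.36 (limma unadjusted p = 0.113), and leaving out KO replicate 1 gave an unadjusted p of 0.111, and leaving out KO replicate 2 gave 0.0668. Kif4, a chromokinesin gene on the X chromosome that also acts at the midzone, had 6.74 and 6.54 in KO against 6.76 and 7.40 in WT (-0.44 ± 0.25). Other detected Kif4 probes gave -0.26 ± 0.26, where WT replicate 1 lay between the KO lines, and -0.26 ± 0.19, where the genotypes did not overlap. Kif22, the chromokinesin that pushes chromosome arms outward, had 7.70 and 7.41 in KO against 7.60 and 8.33 in WT (-0.40 ± 0.27), with WT replicate 1 between the KO lines.

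The remaining kinesins gave smaller differences than their errors. Kif2c, which takes apart microtubules at centromeres, had 7.58 and 7.45 in KO against 7.29 and 8.27 in WT (-0.26 ± 0.31), with the KO values between those of the WT lines. Kif11, the motor that pushes spindle poles apart, had 6.24 and 5.72 in KO against 5.82 and 6.26 in WT (-0.06 ± 0.25). For Kif11 each genotype held 1 high and 1 low array, KO replicate 1 being level with WT replicate 2.

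Both cytokinesis genes tested were lower on both KO arrays. Prc1, which bundles the antiparallel microtubules of the central spindle, had values of 10.09 and 10.04 for KO against 10.21 and 10.80 for WT (-0.44 ± 0.23, limma adjusted p = 0.718). The KO lines were close together and WT replicate 1 was nearer to them than to WT replicate 2. Anln, which encodes the contractile ring scaffold anillin, had 9.61 and 9.38 in KO against 9.61 and 10.28 in WT (-0.45 ± 0.25, limma adjusted p = 0.741), so that its separation rested on a gap of 0.0071 between WT replicate 1 and KO replicate 1. A dim second probe gave -0.25 ± 0.30, and on it the genotypes overlapped, as WT replicate 1 was the lowest array.

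The spindle microtubule proteins held the extremes of the list. Tpx2, which activates Aurora A and nucleates spindle microtubules, had deposited signals of 109 and 103 in KO, not called detected, and of 97.6 and 113.6 in WT, called detected. After normalization its values were 4.60 and 4.49 in KO against 4.98 and 5.56 in WT, a difference of -0.72 ± 0.23, given as a description because the WT arrays alone carried Tpx2 through the detection filter. Measured from the detection limit of the KO arrays, Tpx2 was at least 1.39-fold lower in KO. This bound did not hold under every normalization. The difference was -0.25 without background correction, -0.35 with an offset of 50 and -0.37 in the authors' table, all smaller than the bound. With median scaling relative to all genes it was -0.93, larger than the bound. The signals were near background on all arrays, so the order of the genotypes in Tpx2 rests on the normalization. Nusap1, which bundles spindle microtubules around chromosomes, had 7.04 and 6.56 in KO against 6.90 and 7.46 in WT (-0.38 ± 0.26), with WT replicate 1 between the KO lines.

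Dlgap5, which stabilises the microtubules attached to kinetochores, was the exception to the direction of the list. Its values were 4.93 and 4.77 in KO against 4.64 and 4.88 in WT, which overlap, and its difference of 0.10 ± 0.18 was smaller than its error. The probe was detected in KO replicate 1 and WT replicate 2 only, and the sign turned with median scaling relative to all genes (-0.14), in the authors' scaled table (-0.11) and without WT replicate 1 (-0.02). Gtse1, a microtubule-binding protein of G2 cells, had on its brighter probe 8.87 and 8.90 in KO, and 8.60 and 9.33 in WT (-0.08 ± 0.26). A dimmer Gtse1 probe had 7.74 and 7.83 in KO against 7.59 and 7.61 in WT, with both KO lines above both WT lines (0.19 ± 0.17). On this probe the WT lines were nearly equal, unlike on the brighter probe, and the mean of both gave 0.05. Of the 8 genes with several detected probes, Gtse1 was the only one whose probes differed in sign. The shared sign of the Melk probes is no support, as the WT arrays alone carried the dimmer one through the detection filter.

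**Figure D5:**
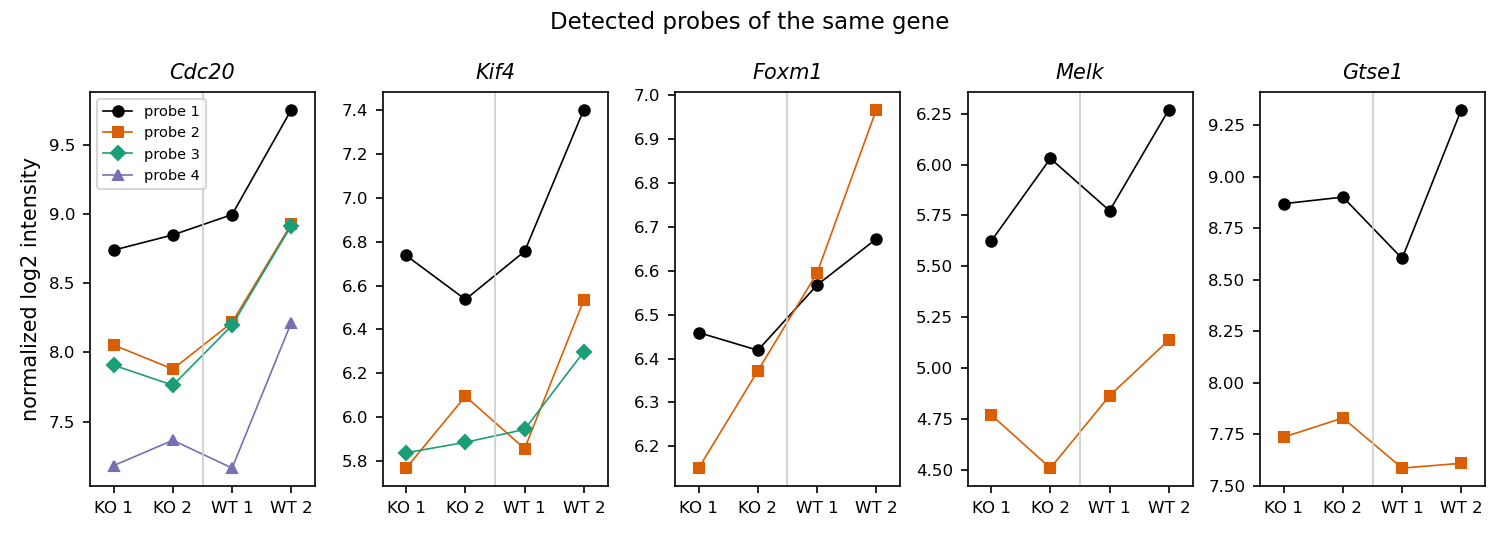
Normalized log2 intensity (vertical axes, a separate range per gene) of each detected probe of 5 genes on the 4 arrays, where each colour is a probe and the lines only join its values. All probes of Cdc20, Kif4, Foxm1 and Melk are highest in WT replicate 2, whereas the dimmer Gtse1 probe is higher in both KO lines. The dimmer Melk probe was detected on the WT arrays alone.

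Of the mitotic chromosome proteins, Top2a, the topoisomerase that untangles sister chromatids, had values of 8.42 and 8.14 for KO against 8.53 and 9.03 for WT. Both KO lines were lower (-0.50 ± 0.23, limma adjusted p = 0.660), and the difference was -0.25 without WT replicate 2. Cdca2, which targets protein phosphatase PP1 to anaphase chromosomes, had 7.08 and 7.24 in KO against 6.90 and 7.58 in WT. The KO values lay between those of the WT lines (-0.08 ± 0.25).

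By group, the median differences with all arrays were -0.33 for Cdk1 and Cdc25c, -0.26 for the kinases with Bora and Foxm1, -0.47 for Cdc20 and Cdca3, -0.40 for the kinesins, -0.45 for Prc1 and Anln, -0.23 for the spindle proteins and -0.29 for Top2a and Cdca2. Without WT replicate 2 every group median lay between -0.13 (Prc1 and Anln) and 0.07 (Cdk1 and Cdc25c). Without WT replicate 1 they ran from -0.87 (Cdc20 and Cdca3) to -0.45 (the kinases). Differences between these groups were not tested.

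Other genes of the same pathways, listed by role, had a median nearer to 0. Of 77 such genes 52 were tested, of which 31 were lower and 21 higher in KO, with a median of -0.05. At an unadjusted p under 0.05, 1 was lower (3.54% of all genes) and 0 were higher, and 0 passed the adjusted threshold. Among the 21 higher genes, E2f2 and Cdk6 passed the detection filter through the KO arrays alone. This favours a higher KO value, so these genes are no support for a direction. The core subunits of the APC with its other activator Cdh1 (Fzr1, -0.07 ± 0.18) had a median of 0.04, with 5 of 11 lower. The MuvB, B-Myb and E2F genes, which control the promoters described above, had a median of 0.07, with 4 of 10 lower, and the gene of B-Myb, Mybl2, had values of 6.01 and 5.81 for KO against 5.87 and 6.21 for WT (-0.13 ± 0.20). Lin9, a MuvB subunit, had no named probe. The switches of mitotic entry had a median of -0.04, with 3 of 6 lower, and their inhibitory kinase gene Wee1 was not detected on 2 arrays. G1 cyclins and kinases had a median of -0.10, with 5 of 7 lower, and cyclin D1 (Ccnd1) was 11.88 and 11.86 in KO against 11.78 and 11.51 in WT (0.23 ± 0.18). In that list cyclin E2 (Ccne2, named after its values were seen) had 5.68 and 5.71 in KO against 5.94 and 6.87 in WT, where WT replicate 2 was highest and the genotypes did not overlap (-0.71 ± 0.30, unadjusted p = 0.0507, limma adjusted p = 0.631). The contractile ring, septin and abscission genes, which also serve cells outside of division, had a median of -0.0032, with 5 of 9 lower.

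Further mitotic motors and spindle proteins were the list most like the 22 genes in direction, with 9 of 9 lower and a median of -0.16. In this list Cdca5, the cohesin protector sororin, had 5.66 and 5.84 in KO against 6.30 and 6.18 in WT (-0.49 ± 0.18, unadjusted p = 0.0281, limma adjusted p = 0.570). For Cdca5 the WT lines were close and both were above both KO lines, a pattern unlike that of most of the 22 genes.

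Other gene lists moved with the same array. The replicative helicase genes Mcm2 to Mcm7, expressed from late G1 into S phase, stood at a median of -0.16 (KO replicate 1), -0.19 (KO replicate 2), -0.16 (WT replicate 1) and 0.53 (WT replicate 2) relative to the mean of the 4 arrays, with 6 of 6 lower in KO (median -0.36). Macrophage marker genes ran the other way. All 11 tested of 14 listed were higher in KO, 9 of them on both KO arrays (21% of all genes). At an unadjusted p under 0.05 in limma, 7 were higher (4.59% of all genes), and 0 passed the adjusted threshold. Their summed normalized intensity was 42246 and 32809 in KO against 28140 and 23591 in WT. WT replicate 2 was lowest for 9 of these 11 (31.4% of all genes) and KO replicate 1 highest for 11 (24.6%). Markers of other cell types also differed, and those named here were chosen after their values were seen. Both skeletal muscle genes tested, of 8 listed, were higher on both KO arrays (Acta1 1.37 ± 0.33 and Des 0.66 ± 0.20 log2 units). Of 3 neural genes tested, Stmn2 (1.40 ± 0.26) and Nes (0.61 ± 0.19) were higher and Map2 (-0.84 ± 0.26) lower. Of 2 endothelial genes tested Emcn was higher (1.66 ± 0.36) and Egfl7 was lower on both KO arrays (-0.28 ± 0.18). Of 4 epithelial genes 3 were higher and 1 lower, with the largest difference for Cldn4 (1.04 ± 0.17). Cldn4 had deposited signals of 82.8 and 83.3 on the WT arrays, under the dimmest signals called detected there. Krt18, also counted as higher, had 89.8 and 92.8 on the WT arrays, likewise under those limits. Both genes passed the detection filter through the KO arrays alone, which favours a higher KO value, so neither is support for the direction. At an unadjusted p under 0.05 in limma, 2 of 2 skeletal muscle genes and 2 of 3 neural genes were higher, and 1 neural gene was lower. For endothelium 1 of 2 and for epithelium 1 of 4 (Cldn4) were higher. Over all genes, 4.59% were higher and 3.54% lower at that threshold. Of the genes tested in these lists, 0 passed the adjusted threshold. Fibroblast markers were detected on every array for 10 of 12 genes, with a median difference of -0.25 and WT replicate 1 highest (0.23 above the mean of the arrays at the median). Of these 10, 9 were lower and 1 higher in KO. Lum was lower on both KO arrays (-0.92 ± 0.20, limma unadjusted p = 0.00245, adjusted p = 0.542). For erythroid markers, 0 of 7 were detected on any array. The part of these lists in the mitotic values was not tested.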

How the data were processed

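Total RNA of 2 KO and 2 WT lines was hybridized to 1 array each. The authors scanned the arrays and summarised beads in GenomeStudio, and deposited a signal intensity per probe, not background-subtracted or scaled, beside a detection p-value against negative controls. A second deposited table holds intensity values scaled by the authors with 1 factor per array (0.884 and 0.883 for KO, 1.16 and 1.15 for WT). For the probes, a genome build is not given in the sources used here.

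The signals went through neqc of limma 3.58.1 under R 4.3.3 (normexp background from the detection p-values, offset 16, quantile normalization, log2). Of 25697 probes, 23978 carried 1 gene name, 0 several and 1719 none. Symbols were updated by gene ID through a RefSeq table, which matched 23962. Probes detected at p under 0.05 on at least 2 of 4 arrays (11552, for 8047 genes) were fitted with lmFit and eBayes (two-sided), with Benjamini-Hochberg adjustment over all of them. Of several tested probes, the brightest on average stood for its gene. Differences are KO minus WT. Where both arrays of a genotype were undetected, the fold is a bound against the dimmest detected signal. The small number of arrays limits precision. The p-values rest on no more than the spread between these lines, each on 1 array, moderated by that of all tested probes. Line numbers were not taken as pairs, since deviations of like-numbered arrays from their genotype means had a correlation of -0.04.

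All 44 genes, H3f3b, 5 pathway genes chosen by name and any gene of the other pathway lists at an unadjusted p under 0.05 were named. The genes and lists were chosen with earlier results of these data known, so their direction is no independent evidence and no list was tested. Alternatives covered the background correction, offset, scaling, detection filter, variance model, replicate block, probe choice, motif set and leaving out each array.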

Additional observations from a re-analysis of the deposited data

How the results depend on the processing

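The median difference over the mitotic genes kept its negative sign under every alternative run, from -0.76 without WT replicate 1 to -0.09 without WT replicate 2, and 0 of them passed the adjusted threshold under any. The count at an unadjusted p under 0.05 in limma and lower in KO was 2 as reported (3.54% of all genes). It was 4 without background correction (3.62%), 5 with an offset of 50 (3.73%) and 4 in the table scaled by the authors (5.90%). It was 1 with a detection p under 0.01 on all 4 arrays (3.93%) and 8 with trend and robust variances (3.93%). The number lower on both KO arrays was 11 to 21 with arrays left out: 15 without KO replicate 1 (29.8% of all genes), 12 without KO replicate 2 (29.7%), 21 without WT replicate 1 (36.0%) and 11 without WT replicate 2 (33.1%), against 17.1% of all genes with 4 arrays. Blocking on the line number (replicate block) left the median at -0.39, and no count changed by over 1.5 times, but the numbers do not pair the lines. Median scaling moved all genes up by 0.28, and relative to that shift the median was -0.37 (22 of 22 under all genes), whereas without it (an alternative chosen after seeing the data) 14 genes were below 0 and 8 above, against 15.9% of all genes below 0. Without the detection filter, 33 of 38 genes were lower (49.9% of all genes), with a median of -0.20.

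Signs turned for Dlgap5 with median scaling (-0.14), in the authors' table (-0.11) and without WT replicate 1 (-0.022), and for Gtse1 with the mean over probes (0.053). Arrays left out in turn gave ranges that crossed 0 for Cdc25c (-0.76 to 0.29), Plk1 (-0.94 to 0.13), Melk (-0.45 to 0.052), Cdca3 (-0.78 to 0.052), Kif11 (-0.32 to 0.20), Kif2c (-0.75 to 0.23), Dlgap5 (-0.022 to 0.22), Gtse1 (-0.43 to 0.28) and Cdca2 (-0.42 to 0.26). The cause of these changes was not tested. A fit with the slide as a block was not run, as the file headers give no slides. Signals near background limit Tpx2, Dlgap5 and Cdc25c.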
